A study of Arabidopsis thaliana with 6 samples.

Results

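The SWEET family (Sugars Will Eventually be Exported Transporters) of Arabidopsis thaliana was followed in rosettes that had lost water, through 10 of its 17 genes, out of 13286 genes that had at least 1 probe set paired with them alone. The 10 members were given by their locus numbers: SWEET1 (AT1G21460), SWEET2 (AT3G14770), SWEET4 (AT3G28007), SWEET5 (AT5G62850, listed in the annotation as AtVEX1), SWEET11 (AT3G48740), SWEET12 (AT5G23660), SWEET13 (AT5G50800), SWEET15 (AT5G13170, called SAG29 below), SWEET16 (AT3G16690) and SWEET17 (AT4G15920). The family was chosen by a value of this same comparison, since SAG29 stood among the transcripts with the largest increase under water deficit. The differences of the members between the groups are therefore given as a description, without a p-value.

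Transcripts were measured in whole vegetative rosettes of the accession Col-0, with 3 Affymetrix ATH1 arrays of dehydration-stressed plants and 3 arrays of watered plants, each array carrying the RNA of 1 replicate. No mutant or transgene was used, and all plants were 4 weeks old when the treatments diverged. The water deficit group received no more water until its relative water content (RWC) was 65%, while the control group was kept watered. The study's methods call the replicates of a condition independent.

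SWEET proteins are membrane carriers that let sugars move down their concentration gradient, in either direction. SWEET1 and SWEET2 belong to clade I and SWEET4 and SWEET5 to clade II, which move mainly hexoses, SWEET11 to SWEET15 to clade III, which moves sucrose across the plasma membrane, and SWEET16 and SWEET17 to clade IV, which acts at the vacuole. In leaves, SWEET11 and SWEET12 are known for releasing sucrose from phloem parenchyma so that it can be loaded into the phloem. SAG29 (senescence-associated gene 29) was named for its transcript in ageing leaves.

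Array brightness was uneven, the median deposited intensity being 18.9 to 51.6 on water deficit and 12.6 to 38.2 on watered arrays, so values were quantile normalized, which gives all arrays the same distribution. Values below are in these normalized units unless called deposited, and a level of one gene is not to be set against that of another, since each probe set has its own response. Background was taken as 18.5 units, the highest value of the control probe sets for Bacillus transcripts, and this floor replaced lower values before conversion to log2. Rubisco activase (RCA), the 1 of 6 listed leaf markers with a probe set, had 6182, 4946 and 3438 units on the water deficit arrays, against 9398, 8388 and 7311 on the watered arrays. The root hair expansin EXPA7, the 1 of 5 listed root markers with a probe set, was at or below the floor on all 6 arrays. Markers for phloem and flowers were not paired with a probe set here and were not analysed.

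Of the 10 SWEET members, 9 were paired with a probe set and 8 passed the filter, which asked for 3 or more of the 6 arrays with a signal above the floor. SWEET12 was not paired with a probe set and was not analysed here. SWEET5, known from the vegetative cell of pollen, had -9.25, 3.44 and 8.88 units under water deficit, against 4.13, 3.63 and 3.70 units in watered rosettes. These values lie below the floor on every array, so no change could be measured for it.

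Transcripts of SAG29, SWEET4 and SWEET1 were higher and that of SWEET16 was lower under water deficit, while those of SWEET2, SWEET11, SWEET13 and SWEET17 differed by less than 1 log2 unit. At a limma adjusted p under 0.05, 3 of the 8 tested members counted as higher, where 21.8% of all 13703 tested probe sets did, and 1 counted as lower, where 23% did. The groups did not overlap, with all water deficit arrays higher, for 4 of 8 members, against 28.4% of all tested probe sets, and with all of them lower for 1 of 8, against 28%. The median log2 fold change was 0.59 over the 8 members and 0.04 over all tested probe sets. Because the choice of the family used this comparison, nothing is read from these counts. Only the water deficit arrays carried SAG29 past the filter, so for this gene no other direction was possible.

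**Figure D1:**
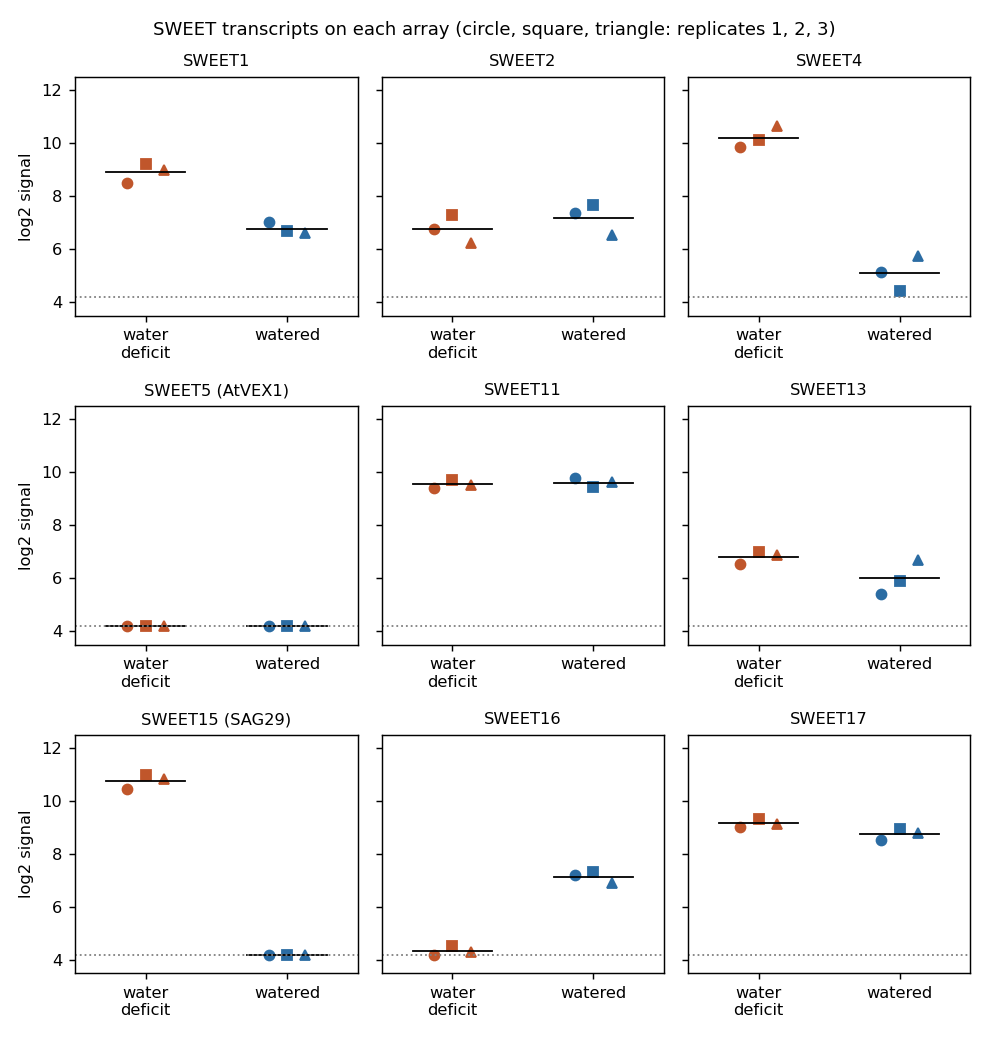
Log2 signal (y axis, quantile normalized, raised to the floor) of the 9 SWEET members with a probe set on the 3 water deficit arrays (left, orange) and the 3 watered arrays (right, blue). Circles, squares and triangles mark replicates 1, 2 and 3, black bars the group means, and the dotted line the floor at 4.21. SAG29 lies on the floor in watered rosettes, SWEET5 lies on it in both groups, and SWEET16 lies at or just above it under water deficit.

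SAG29, a clade III sucrose carrier, had 1415, 2027 and 1836 units in water deficit replicates 1, 2 and 3, against 0.277, -5.98 and -6.67 units in watered replicates 1, 2 and 3. In the deposited intensities, before scaling, the same probe set read 734, 2994 and 2254 under water deficit, against -0.671, -6.83 and -7.33 in watered rosettes. The transcript was thus not distinguishable from background in any watered sample and well above it in each stressed one. With the watered arrays at the floor, the log2 fold change was 6.56 ± 0.19 (SE, n = 3 per group), which is at least 94.3-fold higher. Since all watered values were set to the floor, this SE holds no spread among the watered replicates. The size of the log2 fold change as a lower bound depends on the floor and on the scaling, so 94.3-fold holds for those of the main fit alone. It was 8.63 when values were raised only to the 25th percentile of the arrays, and 6.22 under median scaling. In bulk rosette RNA, more cells with a transcript and more transcript per cell cannot be told apart, here and for the other members.

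The other clade III members measured, SWEET11 and SWEET13, did not show a difference of this size. SWEET11 had 681, 839 and 739 units under water deficit, against 873, 691 and 791 units in watered rosettes. The groups overlapped, and the log2 fold change was -0.06 ± 0.18 (SE, n = 3 per group). Its sign depended on the setting, the value being 0.26 under spike-in scaling (on control transcripts added at hybridisation), 0.31 with no scaling, 0.020 without watered replicate 1 and 0.012 without water deficit replicate 1. Under spike-in scaling and with no scaling, the median over all tested probe sets was itself 0.48 and 0.51.

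SWEET13, a sucrose carrier of the plasma membrane, had 92.8, 127 and 117 units under water deficit, against 42.9, 60.1 and 102 units in watered rosettes. Watered replicate 3 fell among the water deficit values, and the other watered arrays lay below all of them. The log2 fold change was 0.80 ± 0.32 (SE, n = 3 per group), and with the replicate number as a block in the model its SE was 0.23. SWEET13 was not counted as higher above, but it was with the replicate block, which made 4 members higher. It was also counted without watered replicate 3, where its log2 fold change was 1.14. Over all tested probe sets, 3519 were higher with the block and 2890 without watered replicate 3, against 2992 of 13703 in the main fit. Nothing is read from these counts.

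**Figure D2:**
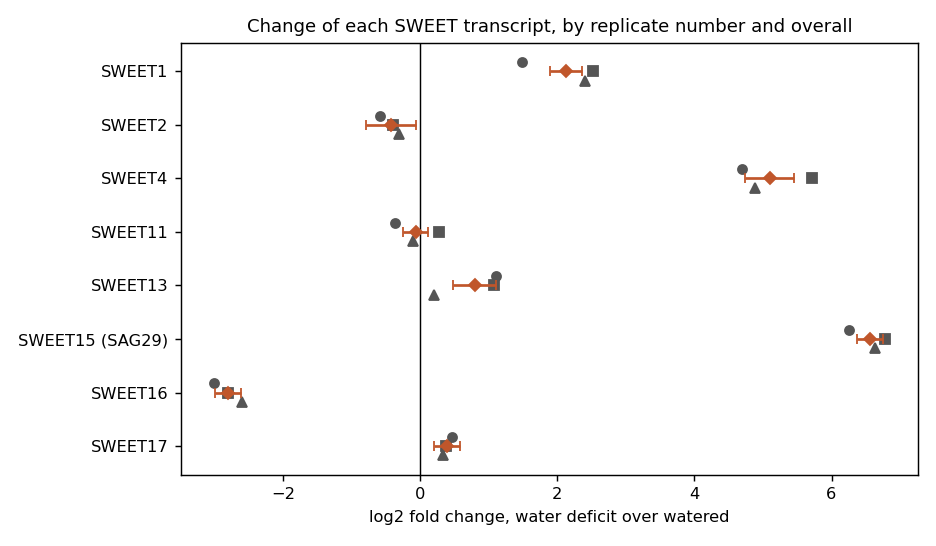
Log2 fold change of the 8 tested SWEET members (x axis, water deficit over watered). Orange diamonds with bars give the fitted value ± SE, and grey circles, squares and triangles the difference between the arrays numbered 1, 2 and 3. All 3 differences are above 0 for SAG29, SWEET1, SWEET4, SWEET13 and SWEET17 and below 0 for SWEET2 and SWEET16, while those of SWEET11 lie on both sides. The values of SAG29 and SWEET16 are bounds set by the floor.

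Both clade I members were measured. SWEET1, a plasma membrane glucose carrier, had 366, 594 and 515 units under water deficit, against 130.3, 104 and 97.7 units in watered rosettes. Every water deficit value was above every watered value, and the log2 fold change was 2.14 ± 0.23 (SE, n = 3 per group), or 4.39-fold. Between arrays of the same number the difference was 1.49 for replicate 1, 2.52 for replicate 2 and 2.40 for replicate 3 on the log2 scale, so replicate 1, the dimmest array of each group, gave the smallest one.

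SWEET2, a vacuolar carrier known from roots, had 109, 157 and 74.7 units under water deficit, against 164, 206 and 92.2 units in watered rosettes. The ranges overlapped, since replicate 3 was the lowest and replicate 2 the highest in each group. Within replicate numbers the water deficit array was lower each time, the differences being -0.59, -0.39 and -0.30 on the log2 scale. The log2 fold change was -0.43 ± 0.37 (SE, n = 3 per group), or ± 0.16 with the replicate number as a block in the model. It turned to 0.10 under spike-in scaling and to 0.14 with no scaling, where the median over all tested probe sets was itself 0.48 and 0.51.

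SWEET4, a clade II hexose carrier, had 919.7, 1128 and 1597 units under water deficit, against 35.5, 21.5 and 54.2 units in watered rosettes. Its watered signals were above the floor on all 3 arrays, though watered replicate 2 was close to it, so the transcript was detected in both groups. The log2 fold change was 5.10 ± 0.36 (SE, n = 3 per group), a 34.2-fold difference. It ranged from 4.71 without watered replicate 2 to 5.53 with no scaling.

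SWEET16, which moves hexoses and sucrose across the tonoplast, had 10.6, 23.2 and 19.9 units under water deficit, against 148, 162 and 120.4 units in watered rosettes. Water deficit replicate 1 was below the floor and the other water deficit arrays were only just above it. The log2 fold change was -2.80 ± 0.19 (SE, n = 3 per group), at least 6.97-fold lower under water deficit. It was -3.07 ± 0.33 with the lower floor at the 25th percentile, -2.27 under spike-in scaling and -2.23 with no scaling.

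SWEET17, a vacuolar fructose carrier, had 517, 636 and 567 units under water deficit, against 374, 489 and 450.5 units in watered rosettes. The groups did not overlap, with the lowest water deficit array above the highest watered one, and the differences within replicate numbers were 0.47, 0.38 and 0.33 on the log2 scale. The log2 fold change was 0.39 ± 0.19 (SE, n = 3 per group, and ± 0.15 with the replicate block), or 1.31-fold. It was not counted among the members called higher.

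The spread between replicates also varied among the members. Leaving out SAG29 in watered rosettes, which was wholly at the floor, the within-group SD on the log2 scale ran from 0.15 for SWEET17 under water deficit to 0.67 for SWEET4 in watered rosettes, beside a median of 0.28 over all tested probe sets. In watered rosettes, SWEET2 and SWEET13 had SDs of 0.60 and 0.63. Under water deficit their SDs were 0.54 and 0.23, so the SWEET13 values lay closer together in stressed plants, a difference in spread that was not tested.

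The 7 family genes outside the members were all paired with a probe set, and none passed the filter. SWEET3, SWEET6, SWEET7, SWEET8, SWEET9, SWEET10 and SWEET14 were at or below the floor on all 6 arrays. With SWEET5, this made 8 of the 16 family genes with a probe set whose signal did not exceed background in rosettes of either group, with values between -9.25 and 15.7 units. Several of these genes are known from flowers, where SWEET9 works in nectaries and SWEET8 in pollen development.

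The gene closest to SAG29 in profile was AT2G21820, which has no described function in the sources used here. Likeness was the root mean square difference between log2 values, raised to the floor and then centred on the gene's own mean over the 6 arrays. It was computed against 7329 probe sets paired with 1 gene. SAG29 was itself picked by this comparison, so the ranking is a description. AT2G21820 differed from SAG29 by 0.15, followed by AT5G66780 at 0.33, AT3G17520 at 0.37, AT2G41190 at 0.39 and AT5G05220 at 0.44. AT2G21820, for example, had 1371, 1529 and 1609.7 units under water deficit, against 1.45, 5.06 and -2.20 units in watered rosettes.

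AT3G17520 encodes a protein with a late embryogenesis abundant domain, and AT2G41190 belongs to an amino acid transporter family. AT2G41190 was above the floor on all watered arrays, with 52.0, 34.5 and 67.3 units, against 3239, 3412 and 3472 units under water deficit, where SAG29 was at the floor in watered rosettes. For SAG29, AT2G21820, AT5G66780 and AT5G05220, the floor replaced every watered value. Their flat watered profiles are therefore made by the floor, and their likeness to SAG29 rests on the water deficit values alone. For AT3G17520 the floor replaced the values of watered replicates 1 and 2. The 6 arrays fall into 2 groups that differ for all of these genes, and the likeness says nothing on shared control.

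**Figure D3:**
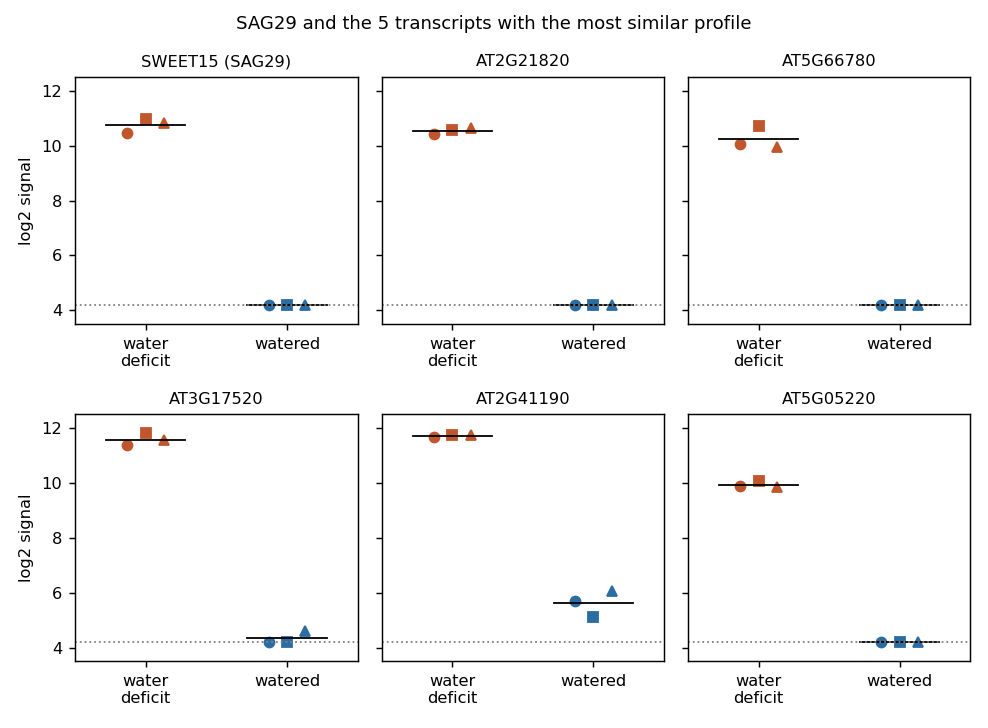
Log2 signal (y axis) of SAG29 and of the 5 genes with the smallest root mean square difference from it, on the 3 water deficit arrays (left, orange) and the 3 watered arrays (right, blue). Symbols, bars and the dotted floor at 4.21 are as in the plot of the members. SAG29, AT2G21820, AT5G66780 and AT5G05220 lie on the floor on all watered arrays.

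Among other carriers and enzymes that handle sugars, 12 genes from 4 lists were tested, of which 4 were called higher and 2 lower, where 21.8% and 23% of all tested probe sets were. Nothing is read from these counts, which are small. Of 14 listed STP hexose transporters 4 were paired with a probe set and 1 was tested. This was AT5G61520, with 110.3, 85.3 and 116 units under water deficit, against 11.2, 28.4 and 82.5 units in watered rosettes (log2 fold change 1.55 ± 0.49, SE, n = 3 per group, limma adjusted p = 0.0342). Watered replicate 1 was below the floor, so this is a lower bound. Leaving out any 1 array ended its call (adjusted p between 0.0624 and 0.104), except for watered replicate 3, without which the log2 fold change was 2.19.

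In the list of tonoplast and other sugar carriers, 2 of 5 tested genes rose, 1 fell and 2 passed in neither direction, beside 21.8% higher and 23% lower over all tested probe sets, and the median was 0.28 on the log2 scale. TMT2, which loads monosaccharides into the vacuole, had 384, 403 and 604 units under water deficit, against 101, 112 and 232 units in watered rosettes. The water deficit values all lay above the watered ones (log2 fold change 1.72 ± 0.34, SE, n = 3 per group, limma adjusted p = 0.00507). AT5G17010 rose 1.90-fold (limma adjusted p = 0.00702). The ERD6-like carrier gene SFP2 fell at least 3.57-fold (limma adjusted p = 0.00314), with 15.8, 22.8 and 18.1 units under water deficit, against 84.3, 102 and 41.1 units in watered rosettes. For its relative SFP1 the log2 fold change was 0.28 ± 0.30 (limma adjusted p = 0.467). That of TMT1 was -1.03 ± 0.38 (limma adjusted p = 0.0567), and TMT1 passed with the replicate block (0.00508), without watered replicate 1 (0.0166) and without water deficit replicate 3 (0.0327).

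In the list of sucrose synthesis and cleavage, 1 of 3 tested genes rose, 1 fell and 1 passed in neither direction, beside the same 21.8% and 23% over all tested probe sets, and the median was 0.31 on the log2 scale. ATSPS4F, a sucrose phosphate synthase, had 91.9, 80.3 and 59.6 units under water deficit, against 533, 264 and 196 units in watered rosettes. The groups did not overlap, and the transcript fell 3.97-fold (limma adjusted p = 0.00343). AT1G62660 rose 2.42-fold (limma adjusted p = 0.00119), and AT2G35840 was not called (log2 fold change 0.31 ± 0.27, limma adjusted p = 0.39).

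None of 3 tested starch breakdown genes passed the limma test (1 had an unadjusted p under 0.05), where 44.9% of all tested probe sets were called in either direction, and the list's median log2 fold change was 0.99. For the alpha-amylase gene AMY1 the log2 fold change was 1.20 ± 0.44 (limma adjusted p = 0.0576). This is a lower bound, since 1 of the 3 watered arrays was above the floor, and it was 2.58 with the lower floor (adjusted p = 0.062). AMY1 passed under spike-in scaling (2.15, adjusted p = 0.0112) and with no scaling (2.23, adjusted p = 0.0233). In these settings the median over all tested probe sets was itself 0.48 and 0.51. The fit there gave the named genes a common SE of 0.65 and 0.71, which is not specific to AMY1. AMY1 also passed with the replicate block (0.0245), without watered replicate 1 (0.0427) and without water deficit replicate 3 (0.00427). The log2 fold change of PWD, a kinase that phosphorylates starch, was 0.99 ± 0.52 (limma adjusted p = 0.155, and 0.0215 without watered replicate 3). That of DPE1, a plastid glucanotransferase, was -0.28 ± 0.50 (limma adjusted p = 0.675).

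**Figure D4:**
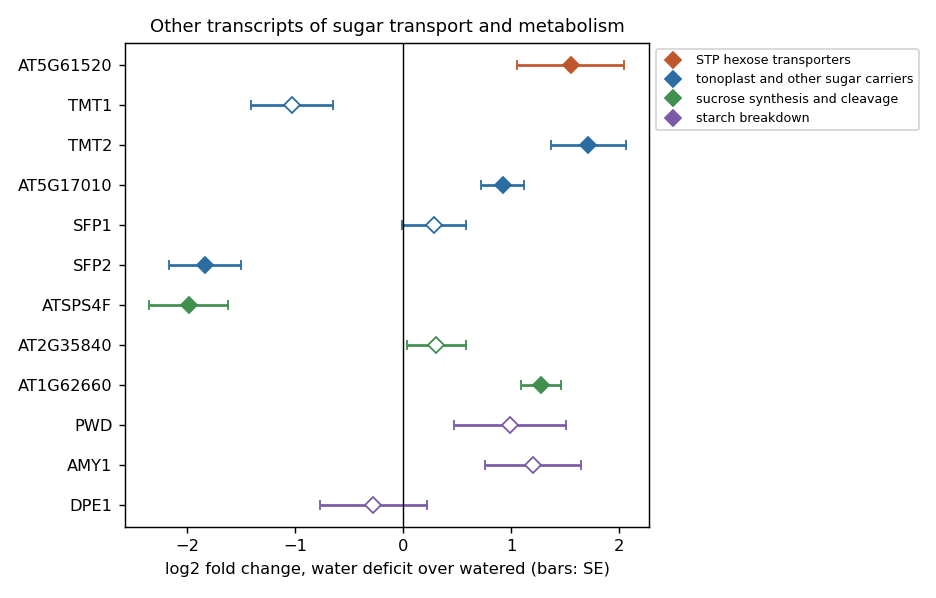
Log2 fold change (x axis, water deficit over watered, bars ± SE, n = 3 arrays per group) of the 12 tested genes in the lists of STP transporters, other sugar carriers, sucrose metabolism and starch breakdown, coloured by list. The values of AT5G61520, SFP2 and AMY1 are bounds set by the floor. Filled diamonds passed a limma adjusted p under 0.05 and open ones did not. TMT2, AT5G61520, AT1G62660 and AT5G17010 lie to the right of 0 and ATSPS4F and SFP2 to the left.

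Of the leaf senescence list, which set SAG29 beside other genes linked to ageing leaves, 3 of 17 genes were tested. WRKY6, a transcription factor of senescing leaves, rose at least 3.49-fold (log2 fold change 1.80 ± 0.27, limma adjusted p = 0.00129). With 1 of 3 watered arrays above the floor this is a bound, and the log2 fold change was 2.50 with the lower floor, 2.55 with no scaling, 2.67 over the 4 brighter arrays and 2.54 when scaled on the spike-in controls. WRKY53 fell 5.41-fold (log2 fold change -2.44 ± 0.33) and SAG101 fell at least 3.06-fold (log2 fold change -1.61 ± 0.20), with 1 of 3 water deficit arrays above the floor. SAG29 differed in the same direction as WRKY6 and in the opposite direction to WRKY53 and SAG101. Its direction was fixed by the choice of the family and by the filter, so nothing is read from this. From the list for abscisic acid (ABA) and dehydration, 1 of 20 genes was paired with a probe set and tested. The unpaired genes of both lists were not analysed. Being unpaired in the annotation used here does not mean being absent from the array. The study's own microarray results name RD29A, RD29B, ABF3 and RD26 among the up-regulated genes. COR15A, which encodes a cold- and drought-regulated chloroplast protein, rose 5.29-fold (limma adjusted p = 0.00605), with 7311, 6117 and 7416 units under water deficit, against 918, 750.0 and 3252 units in watered rosettes. Without watered replicate 3 the log2 fold change was 3.04, against 2.40 with all arrays. The guard cell marker FMA was not called (log2 fold change -0.38 ± 0.17, limma adjusted p = 0.103), though all its water deficit values lay below the watered ones, and it was called lower without the filter (0.0406). Listed genes for sucrose transporters, plastid sugar export and raffinose synthesis were not paired with a probe set and were not analysed.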

How the data were processed

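The deposited values are background-subtracted probe set intensity on a linear scale, which the authors made with the Affymetrix operating software and Rosetta Resolver, before replicates were pooled. No scaling between arrays had been applied to them. Sources used here name no genome build.

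The 22746 non-control probe sets were quantile normalized with all others, raised to the floor of 18.5 units set by 27 Bacillus control probe sets, and converted to log2. Those above the floor on at least 3 of 6 arrays (13703) were fitted in R 4.3.3 with limma 3.58.1 (lmFit, then eBayes, two-sided p-values). The model held the group alone, and p-values were adjusted over all of these probe sets by the Benjamini-Hochberg method. The fit was also run on simulated arrays without replicate pairing and with few changed probe sets. These data differ from that setting, so the simulation does not give the error rate here. An array-based precision rests on 3 arrays per group. Genes were matched through the platform annotation and NCBI gene identifiers (assembly TAIR10.1, names and gene order alone), which left 8730 probe sets without a gene.

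Same-numbered samples of the groups shared their deviations from the group means (correlations of 0.291, 0.23 and 0.393 for replicates 1, 2 and 3), so the numbers in the sample titles were taken to pair them. The main fit nevertheless left the numbers out, as the study combined the replicates of a condition. Its SEs and calls therefore ignore this pairing. A fit with the replicate block was run beside it, and of the genes named here it also called SWEET13, TMT1 and AMY1. Other alternatives were the scaling, floor, filter, variance trend and leaving out arrays.

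The members and the 15 gene lists, written from general knowledge, were chosen with earlier results of these data known. Named are all members, every tested gene of each list, and the 5 genes most like SAG29. Protein and promoter sequences were not analysed here.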

Additional observations from a re-analysis of the deposited data

How the results depend on the processing

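The members were chosen with this comparison known, so their values under other settings are a description. SAG29 failed the filter without any single water deficit array and over the 4 brighter arrays, since it was above the floor on the water deficit arrays alone. With spike-in scaling the log2 fold changes of SWEET2, SWEET11, DPE1 and FMA turned to 0.10, 0.26, 0.25 and 0.15, and with no scaling to 0.14, 0.31, 0.29 and 0.19. All of these lie below the median over all tested probe sets, which was 0.48 and 0.51 in these settings. SWEET11 was also at 0.090 over the brighter arrays, and between -0.15 and 0.020 when 1 array was left out, being above 0 without watered replicate 1 (0.020) and without water deficit replicate 1 (0.012). DPE1 ran from -0.73 to 0.21 when 1 array was left out, and was above 0 without watered replicate 3 (0.082) and without water deficit replicate 2 (0.21).

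Over all tested probe sets, 2992 were higher and 3154 lower, against 1344 higher and 525 lower after spike-in scaling, or 1030 higher and 370 lower with no scaling. The number higher ran from 1913 to 2890 and the number lower from 2129 to 2814 when 1 array was left out. With the replicate block 3519 were higher and 3493 lower. Under spike-in scaling the fit gave every gene named here the same SE, 0.65, and with no scaling 0.71, so these are not gene-specific values. The calls on AT5G17010, SFP2, ATSPS4F, AT1G62660, SAG101 and RCA were lost under both settings. Their log2 fold changes were 1.45, -1.33, -1.51, 1.74, -1.11 and -0.78 when scaled on the spike-ins, and 1.49, -1.29, -1.46, 1.78, -1.07 and -0.74 without any scaling. Other calls were lost on TMT2, COR15A, RCA and AT5G61520 without the filter, on RCA and AT5G61520 with the floor at the 25th percentile, and on WRKY53 and AT5G61520 with no scaling. The cause was not tested. COR15A and AT5G61520 were also not called over the brighter arrays, nor RCA without watered replicate 1 or 2 or water deficit replicate 2 or 3. The number of arrays limits the precision of every value.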

Other observations

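The genes on either side of the SWEET members were looked up by gene order alone, after the members' values had been seen. Of 5 tested neighbours, 1 was called higher and 3 lower, where 21.8% and 23% of all tested probe sets were, and nothing is read from so few. SWEET17 lies beside DI21, a drought-induced gene of the late embryogenesis abundant family, which had 1135, 1521 and 1794 units under water deficit, against 76.8, 54.0 and 83.0 units in watered rosettes. Its log2 fold change was 4.38 ± 0.25 (SE, n = 3 per group, limma adjusted p = 1.54e-05), next to 0.39 for SWEET17. On the other side of SWEET17, AT4G15930 had 156, 207 and 224 units under water deficit, against 343, 336 and 339 units in watered rosettes (log2 fold change -0.81 ± 0.19, limma adjusted p = 0.0107).

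SWEET13 lies beside another family gene, SWEET10, which had -4.62, 0.951 and -0.512 units under water deficit, against -8.11, 10.7 and 8.57 units in watered rosettes. SWEET10 was at or below the floor on all arrays, while SWEET13 was above it on all 6. For AT3G16700, beside SWEET16, the log2 fold change was -0.12 ± 0.22 (limma adjusted p = 0.686), next to -2.80 for SWEET16. AT5G62840, beside SWEET5, had 59.0, 51.5 and 49.6 units under water deficit, against 157, 168 and 116 units in watered rosettes (log2 fold change -1.45 ± 0.20, limma adjusted p = 0.000929). LCB2, beside SWEET12, had 114, 96.6 and 101 units under water deficit, against 159, 158 and 171 units in watered rosettes (log2 fold change -0.65 ± 0.17, limma adjusted p = 0.0148). AT3G28020, beside SWEET4, did not pass the filter. The neighbours of SAG29, SWEET1 and SWEET11 were not paired with a probe set and were not analysed.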
